A study of Mus musculus with 12 samples.

Results

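Rab genes are described here in mouse bone marrow-derived dendritic cells (BMDCs) after stimulation with lipopolysaccharide (LPS). Members were all genes whose symbol is Rab followed by a digit, with symbols taken from the RefSeq accession of each array probe. The array carried 62 such genes, and 54 of them had a probe well above background on all 3 arrays of at least 1 group. These 54, of 11095 genes tested, comprised 47 Rab GTPases and 7 proteins of other kinds that share the Rab name. Rab27a, Rab38 and Rab39 passed that filter through the unstimulated group alone, where each was highest, so the filter favours a fall in these 3. The other 8 genes stayed under that limit. Rab25 was above background on 6 of 12 arrays, Rab9b on 3, Rab3b on 2, and Rab27b, Rab39b, Rab3c, Rab40b and Rab4a on 0.

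All groups came from bone marrow depleted of B and T cells and grown for 5 days in 2 cytokines, GM-CSF (10 ng/ml) and IL-4 (5 ng/ml). LPS (100 ng/ml) was then given for 1, 6 or 24 h, and unstimulated cells were collected at 0 h. Each of the 4 groups had 3 arrays, from donors A, B and C. The labels state no strain, sex or age of the mice, nor whether a letter marks the same animal in every group. Time in culture after the start of stimulation differs between the LPS groups and the 0 h cells, so LPS and added culture time cannot be told apart. Each sample was labelled with Cy5 and hybridised beside a Cy3-labelled universal mouse reference RNA, and all values below are log2 ratios of Cy5 over Cy3. No array had its dyes swapped. A difference between groups is a difference of mean log2 ratios, so a value of 1 is a 2-fold change.

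Rab proteins are small GTPases that sit on membranes when loaded with GTP and recruit motors, tethers and other effectors. Exchange factors (GEFs) load them, GTPase-activating proteins (GAPs) switch them off, and GDI and REP proteins carry them through the cytosol. Each Rab marks certain compartments, and in dendritic cells these steps carry Toll-like receptors, phagosomes, MHC molecules and cytokine cargo. RNA levels, as measured here, do not show how much Rab protein is loaded with GTP.

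In the sample channel, 48.1 to 57.6% of probes passed the background limit on each array. Of the 54 members, 46 were above background on all 12 arrays. Slide 1 held the 3 unstimulated arrays and LPS 1 h donor A, slide 2 held donor B at 1 and 24 h, slide 3 held LPS 1 h donor C with 6 h donors A and B, and slide 4 held 6 h donor C with 24 h donors A and C. Unstimulated cells thus never shared a slide with 6 or 24 h cells, and values with slide as a block are given beside the results. Under that block, every change against unstimulated cells rests on LPS 1 h donor A, the 1 LPS array on slide 1. The culture's labelled cell type could be checked: 8 of 9 dendritic cell markers were kept, with a mean log2 ratio of 2.86 to 3.11 in unstimulated cells (Cd209a was not kept). Neutrophil markers were also present, 7 of 10 being tested. Their mean log2 ratio was 3.38 to 3.95 in unstimulated cells, 1.95 to 2.67 at 1 h, 1.07 to 1.97 at 6 h and 1.02 to 2.00 at 24 h. Of these 7, 4 were lower at 1 h and 7 at both later times, with medians of -0.94, -1.74 and -2.01 in log2 change. Of 6 mast cell markers tested, 4 were lower and 1 higher at 6 h and 3 lower and 1 higher at 24 h, with medians of -0.43 and -0.24. Their mean log2 ratio was 0.73 to 0.81 in unstimulated cells, 0.64 to 0.90 at 1 h, 1.12 to 1.19 at 6 h and 1.17 to 1.43 at 24 h. Of 5 macrophage or monocyte markers, 2 were higher and 1 lower at 6 h and 2 higher and 2 lower at 24 h, with medians of 0.56 and -0.49. No natural killer cell marker was kept, and of the B cell markers Cd79a, Ms4a1 and Pax5 were not kept. In a bulk sample, fewer cells of a type and less RNA per cell cannot be told apart, and the part of these markers in the Rab changes was not tested.

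Promoter sequences of 4 members with a single listed start are shown. These members include the largest rises at 6 h (Rab12 and Rab32) and the largest fall at 24 h (Rab19). Rab20 was the member both called and changed at least 2-fold at 1 h. Each sequence is the 250 bases before the RefSeq start on GRCm38.p6, written along the gene's strand. Rab12 lies at chr17:66519671-66519920, Rab32 at chr10:10558208-10558457 and Rab20 at chr8:11478641-11478890, all on the minus strand, and Rab19 at chr6:39381103-39381352 on the plus strand. Capitals mark matches to searched motifs.
Rab12: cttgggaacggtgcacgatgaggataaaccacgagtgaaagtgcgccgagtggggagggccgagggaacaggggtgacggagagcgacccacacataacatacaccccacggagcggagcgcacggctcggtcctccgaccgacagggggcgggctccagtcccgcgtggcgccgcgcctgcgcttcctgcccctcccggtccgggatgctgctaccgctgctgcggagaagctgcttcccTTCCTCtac
Rab32: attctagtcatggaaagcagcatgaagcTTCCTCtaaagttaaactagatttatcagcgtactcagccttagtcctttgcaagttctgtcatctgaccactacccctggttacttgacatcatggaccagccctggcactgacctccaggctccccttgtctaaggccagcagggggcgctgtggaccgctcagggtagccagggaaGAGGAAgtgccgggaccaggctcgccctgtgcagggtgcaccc
Rab20: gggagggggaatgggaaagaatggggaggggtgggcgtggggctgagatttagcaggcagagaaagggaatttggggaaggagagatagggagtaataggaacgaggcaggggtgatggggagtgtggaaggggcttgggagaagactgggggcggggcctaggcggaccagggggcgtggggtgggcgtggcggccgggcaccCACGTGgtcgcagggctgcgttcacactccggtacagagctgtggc
Rab19: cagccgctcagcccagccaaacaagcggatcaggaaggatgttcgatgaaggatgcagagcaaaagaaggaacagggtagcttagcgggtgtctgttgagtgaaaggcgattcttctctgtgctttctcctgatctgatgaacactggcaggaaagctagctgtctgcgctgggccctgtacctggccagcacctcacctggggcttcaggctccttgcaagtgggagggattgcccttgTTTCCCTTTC
Capitals are GAGGAA, a core that the myeloid factor PU.1 binds, or its reverse complement in Rab12 and Rab32. In Rab20 they are CACGTG, the E-box read by the lysosomal regulator TFEB and other factors. In Rab19 they are the reverse complement of GAAANNGAAA, the interferon-stimulated response element. The same window was searched on both strands for 6 motifs, which also included the kappa-B site, TGANTCA (AP-1) and TGACGTCA (CRE). Promoter entries existed for 47 of 54 members, in 64 windows. GAGGAA was found in 18.8% of the members' windows and in 23.3% of all 32851 promoters. CACGTG was found in 10.9 and 6.02%, the kappa-B site in 6.25 and 7.25%, and TGANTCA in 3.12 and 6.75%. GAAANNGAAA was found in 1.56 and 2.98%, and TGACGTCA in 1.56 and 1.55%. These matches are a description of the letters.

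At 6 h of LPS, 30 of the 54 members differed from unstimulated cells at an adjusted p under 0.05 (limma with Benjamini-Hochberg adjustment over all 11095 genes), against 39.6% of all genes. Of these, 18 were higher, against 16.1% of all genes, and 12 were lower, against 23.6%. At 24 h, 21 members were called, against 39.4% of all genes: 16 were higher (17.9% of all genes) and 5 lower (21.4%). At 1 h, 5 were called against 7.44% of all genes, 4 higher (4.05%) and 1 lower (3.39%). The median log2 change of the members was 0.09 at 1 h, 0.20 at 6 h and 0.13 at 24 h, beside medians of 0.02, -0.04 and 0.02 over all genes. No member was called in opposite directions at different times. The comparisons share the unstimulated arrays. Called changes of at least 2-fold were found for 1 member at 1 h (2.51% of all genes), 9 at 6 h (11.8%) and 8 at 24 h (12%), 13 members in all.

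**Figure D1:**
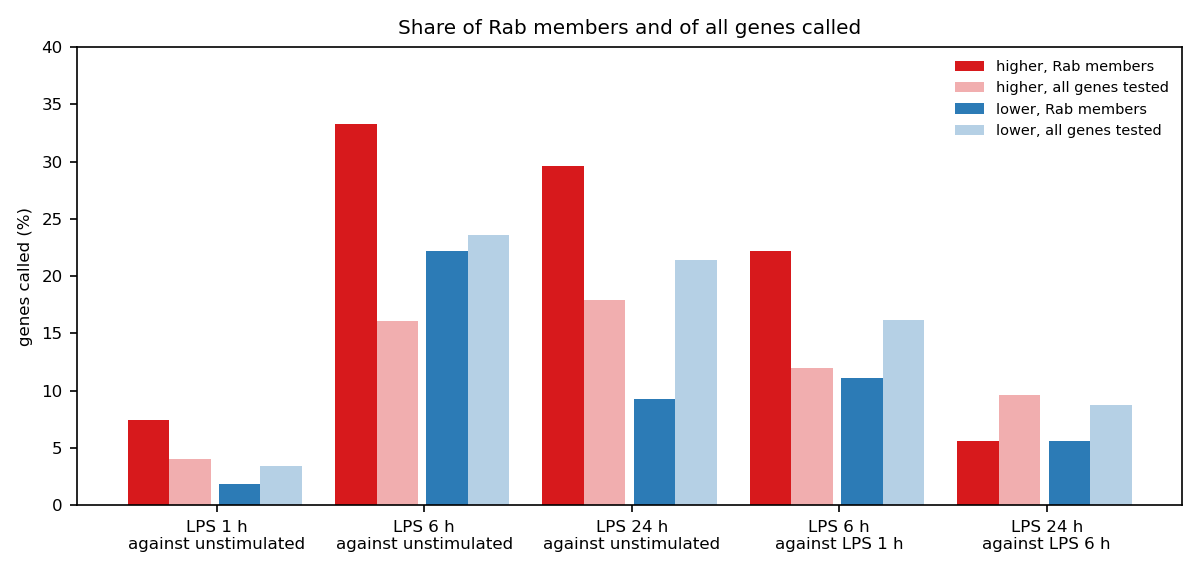
Percent of genes called (y axis) in 5 comparisons (x axis), higher in red and lower in blue, with Rab members in full colour and all genes tested in pale colour. At 6 h, 33.3% of members and 16.1% of all genes were higher, while 22.2% of members and 23.6% of all genes were lower.

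With slide as a block, 14 members were called at 6 h (10 higher, 4 lower, against 17.6% of all genes), all among the 30, and 8 at 24 h (6 higher, 2 lower, against 15.9%), 7 of them among the 21. At 1 h, limma called 0 members with that block (11 at an unadjusted p under 0.05), and 2.03% of all genes. Every called member kept its sign under that block, which rests on 1 LPS array beside the unstimulated cells. With median centring in place of loess the split was 11 higher and 1 lower at 6 h (18.2% of all genes called), and 7 higher and 4 lower at 24 h (21%). The Cy5 channel alone gave 10 higher and 6 lower at 24 h (36.1% of all genes) and 1 higher and 0 lower at 1 h (5.34%), where the processed signals of the scanner software gave 2 higher and 1 lower (6.03%). Under both median centring and the deposited local background of each spot, the calls of Rab10, Rab12, Rab32, Rab34, Rab3ip, Rab8a and Rab9 held at 6 h, those of Rab10, Rab12, Rab19, Rab32, Rab34, Rab39, Rab3il1 and Rab9 at 24 h, and 0 at 1 h. Among members that changed at least 2-fold, median centring ended the 6 h calls of Rab7b (adjusted p = 0.0557), Rab3il1 (0.0589), Rab15 (0.152), Rab33a (0.168) and Rab19 (0.262). At 1 h the count was 1 without unstimulated donor A, without unstimulated donor B or without LPS 1 h donor A (3.05, 3.21 and 4.76% of all genes). It was 2 without LPS 1 h donor B (3.62%), and 3 without unstimulated donor C or without LPS 6 h donor A or B (6.92, 5.75 and 6.98%).

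**Figure D2:**
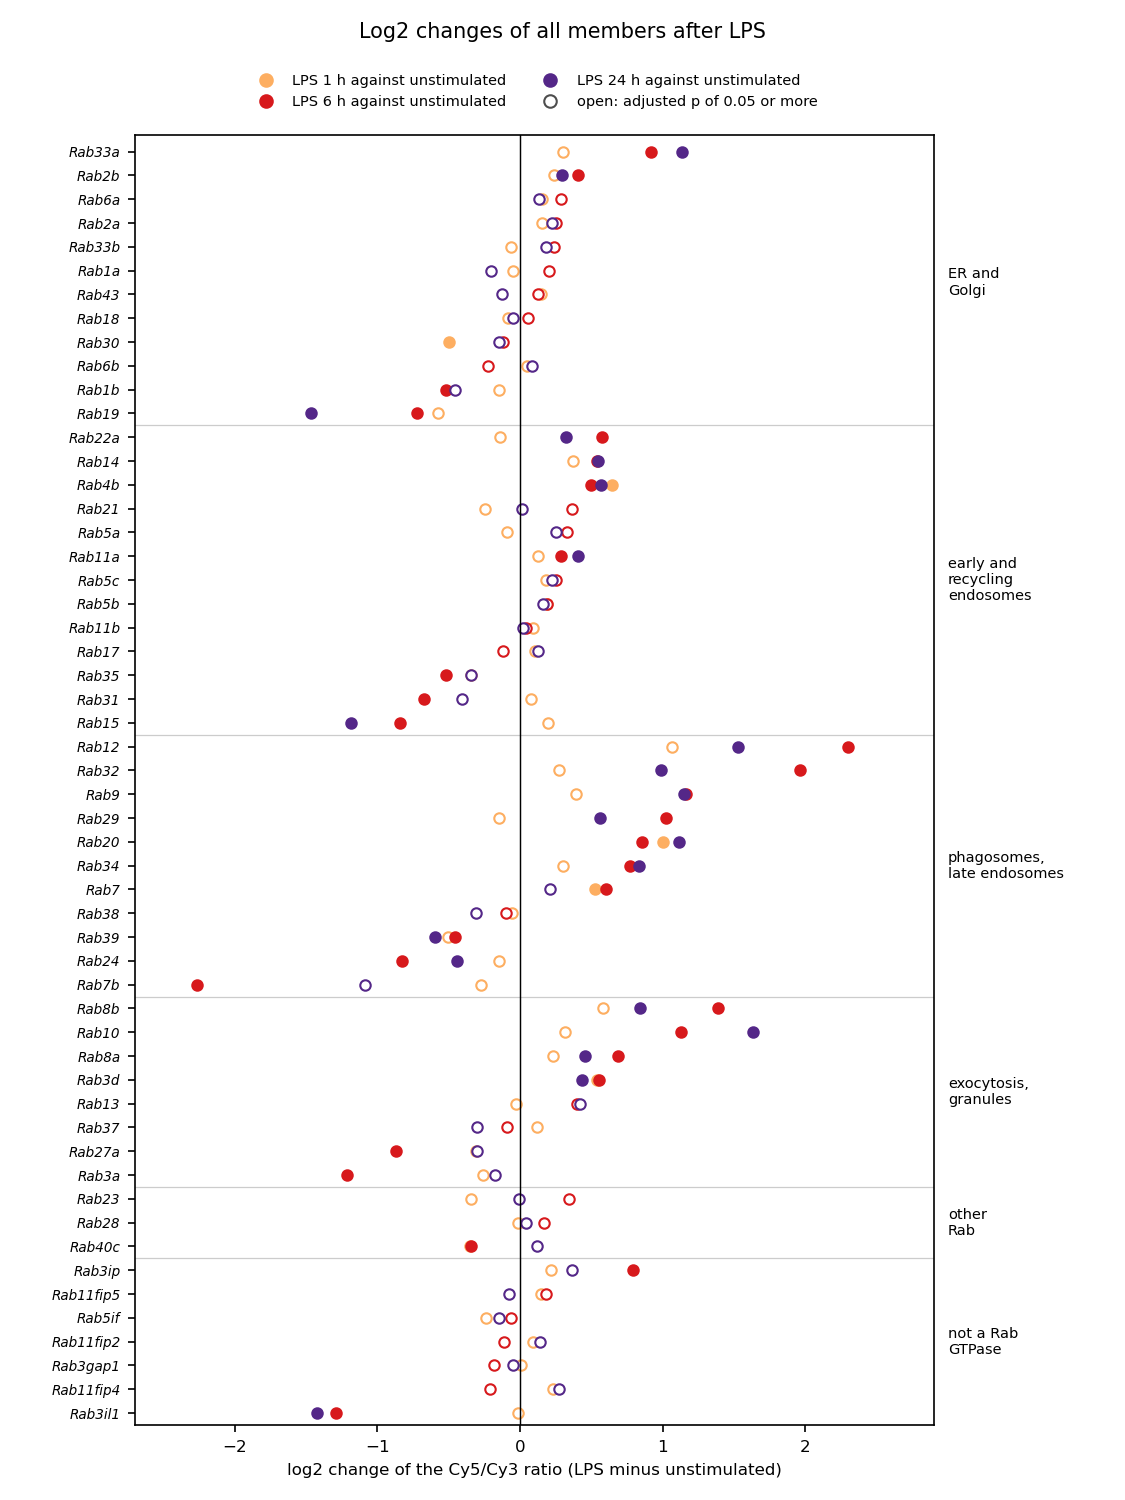
Log2 change of each of the 54 members (rows, grouped by role) at 1, 6 and 24 h of LPS against unstimulated cells (x axis). Filled points have an adjusted p under 0.05. Changes at 6 h run from -2.27 for Rab7b to 2.30 for Rab12.

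Rabs of phagosomes, late endosomes and lysosome-related organelles held the largest rise and the largest fall at 6 h. Of 11 such members, 7 were higher and 3 lower at 6 h, with a median log2 change of 0.77. At 24 h, 6 were higher and 2 lower, with a median of 0.56. At 1 h, 2 were higher, 0 lower, and the median was 0.27. Beside this and the role groups below, 16.1% of all genes were higher and 23.6% lower at 6 h, with a median of -0.04. At 24 h the shares were 17.9 and 21.4%, and at 1 h 4.05 and 3.39%, with medians of 0.02.

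Rab12, which directs recycling cargo such as the transferrin receptor to lysosomes, had log2 ratios of -0.65, -0.74 and -0.33 in unstimulated cells of donors A, B and C, 0.44, 1.06 and -0.03 at 1 h, 2.00, 2.10 and 1.08 at 6 h and 0.96, 1.40 and 0.52 at 24 h. All LPS arrays lay above all unstimulated arrays, and at 6 h donor C was the low array. The log2 change was 2.30 (SE 0.31) at 6 h, or 4.93-fold, and 1.53 at 24 h, with adjusted p of 0.00011 and 0.00197 (limma). At 1 h it was 1.06 with an adjusted p of 0.0587, or 0.0211 with donor letter as a block. Blocking by slide gave 2.67 at 6 h and 1.91 at 24 h, with adjusted p of 0.00211 and 0.0153. A second, dimmer Rab12 probe gave 0.30, 1.20 and 0.94 at 1, 6 and 24 h (adjusted p = 0.463, 0.00127 and 0.00576).

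Rab32 acts with its relative Rab38 in sending cargo to lysosome-related organelles and in defence against Salmonella in macrophages. Its log2 ratios were 1.36, 1.64 and 1.02 in unstimulated cells, 1.37, 1.93 and 1.54 at 1 h, 3.35, 3.43 and 3.15 at 6 h and 2.34, 2.59 and 2.05 at 24 h. The 3 arrays at 6 h stood above every other array, and the 24 h arrays lay between them and the unstimulated ones. The change was 1.97 (SE 0.19) at 6 h, or 3.91-fold, with an adjusted p of 7.97e-06 (limma), and 0.99 at 24 h with an adjusted p of 0.00142. At 24 h against 6 h the change was -0.98 (adjusted p = 0.00422), and -0.95 within slide 4, whose arrays are part of the same test. That call was lost with the deposited local backgrounds (adjusted p = 0.271). The slide block gave 1.81 at 6 h and 0.79 at 24 h, with adjusted p of 0.00313 and 0.112. Rab38, the relative, was above background on 3 unstimulated arrays, 1 array at 1 h and 0 at 6 and 24 h. Its changes of -0.10 at 6 h and -0.31 at 24 h did not pass the test (adjusted p = 0.559 and 0.0591).

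Rab9 returns mannose 6-phosphate receptors from late endosomes to the Golgi. Its log2 ratios were -1.47, -1.88 and -1.19 in unstimulated cells, -0.81, -1.20 and -1.36 at 1 h, -0.18, -0.10 and -0.76 at 6 h and -0.25, -0.06 and -0.78 at 24 h. Arrays at 6 and 24 h lay above all unstimulated arrays, with donor C lowest at both times. The changes were 1.17 (SE 0.24) and 1.15, with adjusted p of 0.00205 and 0.0023 (limma). Under the slide block the values were 1.82 and 1.98 (adjusted p = 0.00768 and 0.00792).

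Rab29, which partners the kinase LRRK2 at the Golgi and lysosomes, had log2 ratios of 1.66, 1.65 and 1.49 in unstimulated cells, 1.47, 1.20 and 1.68 at 1 h, 2.74, 2.57 and 2.56 at 6 h and 2.33, 1.99 and 2.17 at 24 h. The 6 h arrays were the highest and did not overlap with any other group. It was 1.02 higher at 6 h (SE 0.14, adjusted p = 0.000105, limma) and 0.56 higher at 24 h (adjusted p = 0.00597). Fitted with a slide block, the values were 0.89 and 0.62, with adjusted p of 0.0178 and 0.0811. With each spot's deposited local background the 6 h change was 0.47 (adjusted p = 0.37).

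Rab20 takes part in phagosome maturation and is induced by interferon-gamma in macrophages. Its log2 ratios were 2.16, 1.56 and 1.76 in unstimulated cells, 2.89, 2.61 and 2.98 at 1 h, 2.60, 2.59 and 2.84 at 6 h and 2.85, 3.12 and 2.84 at 24 h. Every LPS array was above every unstimulated array, and the 1 h arrays overlapped with those at 6 and 24 h. The changes were 1.00, 0.85 and 1.11 (SE 0.16) at 1, 6 and 24 h, with adjusted p of 0.00252, 0.00122 and 0.000198 (limma). With slide as a block the values were 1.06, 0.95 and 1.22, with adjusted p of 0.0661, 0.0795 and 0.0385. With the deposited local backgrounds the changes were 0.93, 0.26 and 1.11 (adjusted p = 0.274, 0.681 and 0.0533), and with median centring the 1 h change was 0.89 (adjusted p = 0.186). At 1 h the slide-block value of 1.06 is the difference within slide 1, between 1 LPS array and the mean of the unstimulated arrays.

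Rab7b, which in macrophages has been linked to lysosomal degradation of TLR4, was the member that fell most. Its log2 ratios were 1.61, 1.86 and 1.76 in unstimulated cells, 1.62, 1.10 and 1.68 at 1 h, -0.71, -1.49 and 0.62 at 6 h and 1.35, -0.75 and 1.35 at 24 h. The 6 h arrays lay below all unstimulated arrays but spread over 2 log2 units, and at 24 h donor B alone was far below the others. The change was -2.27 (SE 0.54) at 6 h, 4.82-fold lower, with an adjusted p of 0.00503 (limma). It was -1.09 at 24 h with an adjusted p of 0.132, or 0.0463 with donor letter as a block. Blocking by slide gave -2.83 at 6 h and -2.04 at 24 h, with adjusted p of 0.000463 and 0.00502. Its paralog Rab7, the late endosome Rab that drives fusion with lysosomes, was 0.52 higher at 1 h (adjusted p = 0.0477) and 0.60 higher at 6 h (adjusted p = 0.00531), and at 24 h the change was 0.21 (adjusted p = 0.285). The 1 h call of Rab7 was lost without any 1 of 9 arrays (adjusted p up to 0.19), and slide as a block left neither call (adjusted p = 0.333 and 0.339).

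The group also held 3 other called Rabs. Rab34, which positions lysosomes and acts on phagosomes, was 0.77 and 0.83 higher at 6 and 24 h (adjusted p = 0.00908 and 0.00583), and 1.26 and 1.41 higher with the slide block (adjusted p = 0.00284 and 0.00282). Its second probe gave 0.20 and 0.34 (adjusted p = 0.419 and 0.165), and the mean of both probes gave 0.49 at 6 h (adjusted p = 0.0557). Rab24, linked to autophagy, changed by -0.83 at 6 h (adjusted p = 0.00163), and at 24 h its change of -0.44 lay just inside the threshold at an adjusted p of 0.049987 and was lost without any 1 of 7 arrays (adjusted p up to 0.151). Neither held with the slide block (adjusted p = 0.0597 and 0.308). Rab39, a Rab of late endosomes and phagosomes, was kept by the filter through unstimulated cells alone and was not above background on any array at 24 h. Rab39 changed by -0.60 at 24 h, with an adjusted p of 0.00691 (limma). At 6 h, where 1 of 3 arrays measured it, the change was -0.46 with an adjusted p of 0.0274. At 1 h, Rab39 had an adjusted p of 0.0605, or 0.035 with donor letter as a block. The slide block gave adjusted p of 0.128 and 0.078 at 6 and 24 h, and 4 single arrays each ended the 6 h call when left out (adjusted p up to 0.106).

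**Figure D3:**
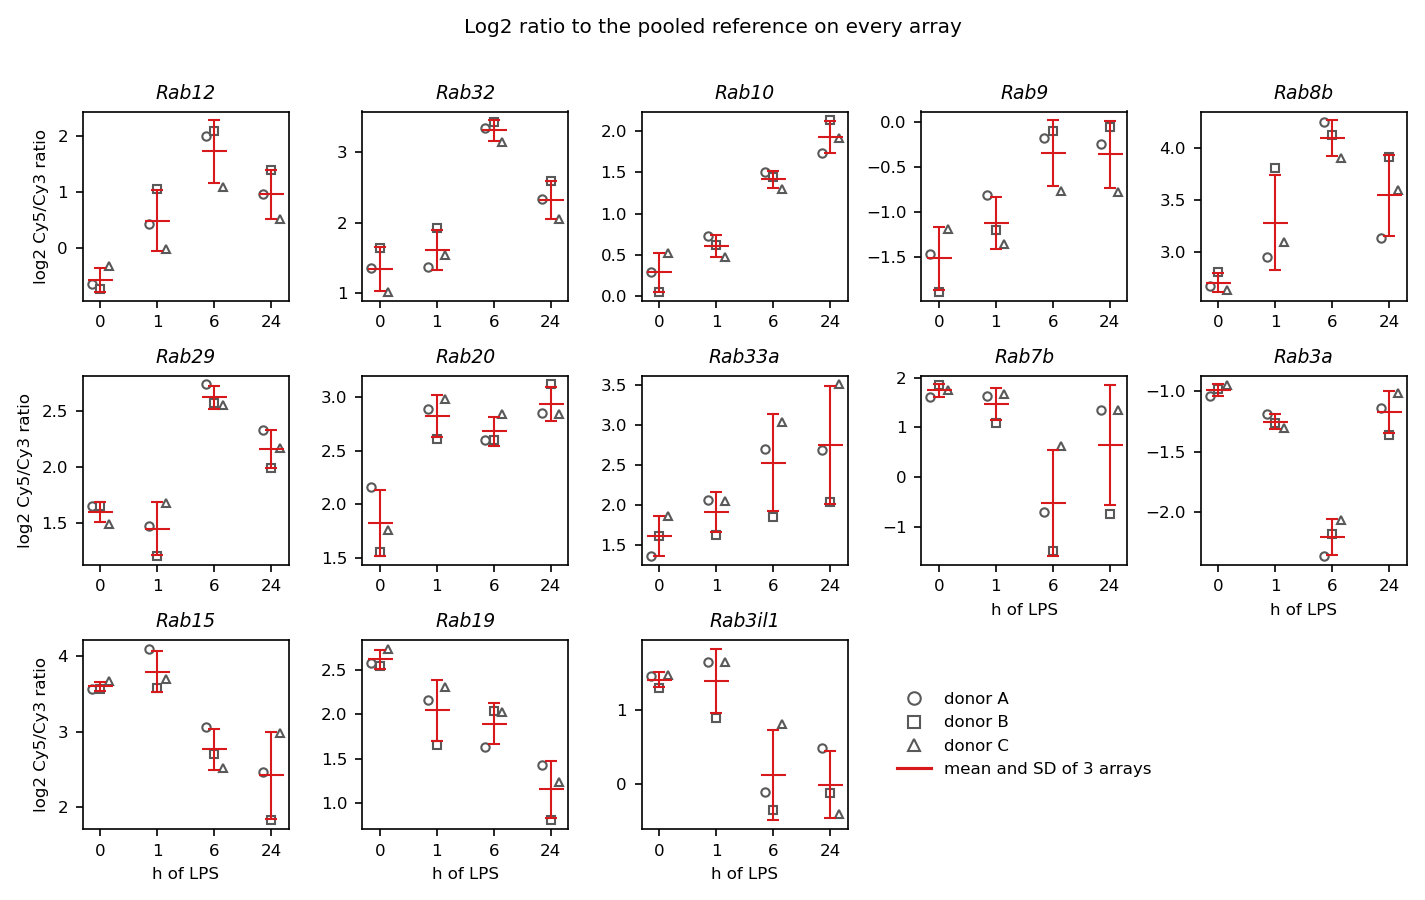
Log2 Cy5/Cy3 ratio (y axis, own range in each panel) of the 13 members that were called and changed at least 2-fold, at 0, 1, 6 and 24 h of LPS (x axis). Grey symbols are single arrays by donor, and red bars are the mean and SD of 3 arrays. Rab32 at 6 h stands above its other times, and Rab7b spreads widely at 6 and 24 h.

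Rabs of exocytosis and secretory granules moved both ways. Of 8 members, 4 were higher and 2 lower at 6 h (median 0.48), 4 were higher and 0 lower at 24 h (median 0.43), and 1 was higher at 1 h.

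Rab10 delivers GLUT4 vesicles in fat cells and, in macrophages, TLR4 to the cell surface. Its log2 ratios were 0.30, 0.05 and 0.52 in unstimulated cells, 0.73, 0.62 and 0.47 at 1 h, 1.50, 1.44 and 1.30 at 6 h and 1.74, 2.13 and 1.91 at 24 h. All arrays at 24 h were above all at 6 h, and these above all earlier ones. The changes were 1.12 (SE 0.14) at 6 h and 1.64 at 24 h, or 3.11-fold, with adjusted p of 7.02e-05 and 5.51e-06 (limma). The slide block gave 1.43 and 1.95 (adjusted p = 0.00415 and 0.00146). Rab10 was 0.51 higher at 24 h than at 6 h (adjusted p = 0.0272, or 0.0902 with slide as a block), and 1 of the other 2 Rab10 probes gave -0.04 for that difference. Against unstimulated cells that probe gave 0.67 at 6 h and 0.63 at 24 h (adjusted p = 0.00186 and 0.0029). The remaining probe gave 1.18 and 1.52.

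Rab8b and its paralog Rab8a act in traffic to the cell surface. Rab8b had log2 ratios of 2.68, 2.81 and 2.63 in unstimulated cells, 2.95, 3.81 and 3.09 at 1 h, 4.25, 4.13 and 3.91 at 6 h and 3.13, 3.91 and 3.60 at 24 h. All LPS arrays exceeded the unstimulated ones. It was 1.39 higher (SE 0.22) at 6 h and 0.84 higher at 24 h, with adjusted p of 0.000382 and 0.00974 (limma). Under the slide block the values were 1.21 and 0.53 (adjusted p = 0.0134 and 0.226), the deposited local backgrounds gave 0.40 at 6 h (adjusted p = 0.682), and another Rab8b probe gave -0.04 at 24 h. Rab8a was 0.68 higher at 6 h (adjusted p = 0.000589) and 0.46 at 24 h (adjusted p = 0.00783), which became 0.0263 and 0.0832 with slide as a block.

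Rab3a, known for regulated secretion in neurons, had log2 ratios of -1.04, -0.98 and -0.95 in unstimulated cells, -1.19, -1.26 and -1.31 at 1 h, -2.36, -2.18 and -2.07 at 6 h and -1.14, -1.36 and -1.01 at 24 h. The 6 h arrays were lowest by a clear gap, and the 24 h arrays overlapped with the unstimulated ones. It was 2.31-fold lower at 6 h (log2 change -1.21, SE 0.12, adjusted p = 8.94e-06, limma), and the 24 h change was -0.18 (adjusted p = 0.262). At 24 h it was 1.03 higher than at 6 h (adjusted p = 0.000165), and 0.99 within slide 4, but 0.38 with the deposited local backgrounds (adjusted p = 0.559) and 0.83 with median centring (adjusted p = 0.084). The fall at 6 h was -1.20 with the slide block (adjusted p = 0.00358) and -0.56 with the deposited local backgrounds (adjusted p = 0.334). Its paralog Rab3d, a Rab of secretory granules, was higher by 0.54, 0.56 and 0.43 log2 at 1, 6 and 24 h, with adjusted p of 0.0307, 0.00549 and 0.0215. The second Rab3d probe gave 0.34, 0.40 and 0.32 (adjusted p = 0.197, 0.0544 and 0.12). With the slide block the changes of Rab3d were 0.63, 0.75 and 0.55 and none of the 3 was called (adjusted p = 0.163, 0.0758 and 0.2), and the 1 h call was lost without unstimulated donor A or B or LPS 1 h donor A or B (adjusted p up to 0.133) and the 24 h call without unstimulated donor A or B or 24 h donor B (up to 0.102).

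Rab27a, which docks secretory lysosomes and granules and is also abundant in neutrophils, had log2 ratios of 0.39, -0.01 and 0.86 in unstimulated cells and -0.49, -0.71 and -0.15 at 6 h. Its change at 6 h was -0.87 with an adjusted p of 0.0103 (limma), while only 1 of the 3 arrays at 6 h was above background and the filter kept Rab27a through unstimulated cells alone. It was -0.57 with the slide block (adjusted p = 0.363) and lost its call without unstimulated donor C (adjusted p = 0.0502). At 24 h the change was -0.30 (adjusted p = 0.34). Rab13, of epithelial junctions, had changes of 0.40 at 6 h and 0.42 at 24 h that did not pass (adjusted p = 0.14 and 0.124) and that passed with donor letter as a block (adjusted p = 0.0321 and 0.0273). Rab37 was not called at any time.

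Among 13 Rabs of early and recycling endosomes, 4 were higher and 3 lower at 6 h (median 0.25), 4 higher and 1 lower at 24 h (median 0.16), and 1 higher at 1 h. Rab15, which regulates endocytic recycling, had log2 ratios of 3.57, 3.57 and 3.68 in unstimulated cells, 4.11, 3.58 and 3.70 at 1 h, 3.06, 2.71 and 2.52 at 6 h and 2.46, 1.82 and 2.98 at 24 h. Both later groups lay below all unstimulated arrays. The changes were -0.84 (SE 0.25) and -1.18, with adjusted p of 0.0153 and 0.00213 (limma). Fitted with a slide block, the values were -0.66 and -0.80 (adjusted p = 0.266 and 0.19), and leaving out 6 h donor C ended the 6 h call (adjusted p = 0.0555).

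Rab4b, of fast recycling, was higher at all 3 times. Its log2 ratios were -0.74, -1.18 and -0.69 in unstimulated cells, 0.05, -0.34 and -0.38 at 1 h, -0.23, -0.49 and -0.40 at 6 h and -0.23, -0.31 and -0.36 at 24 h. No LPS array overlapped with the unstimulated ones. The changes were 0.64, 0.50 and 0.57 with adjusted p of 0.0262, 0.0221 and 0.0108 (limma). With slide as a block the values were 0.91, 0.91 and 0.99 (adjusted p = 0.0581, 0.049 and 0.043). The 1 h call was lost without unstimulated donor A or B or LPS 1 h donor A (adjusted p up to 0.116), the 6 h call without unstimulated donor B or 6 h donor A (adjusted p up to 0.103) and the 24 h call without unstimulated donor B (adjusted p = 0.054).

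Rab22a, which sorts endosomal cargo including MHC class I, was 0.57 higher at 6 h and 0.32 at 24 h (adjusted p = 0.00197 and 0.0442). Rab14, between Golgi, endosomes and phagosomes, was 0.54 and 0.55 higher (adjusted p = 0.0442 and 0.041), although its second probe gave -0.01 at 6 h. Rab11a, the main Rab of recycling endosomes, was 0.29 and 0.41 higher (adjusted p = 0.0487 and 0.00894), the 6 h call being lost with donor letter as a block (adjusted p = 0.0578). Its paralog Rab11b changed by 0.04 and 0.02 (adjusted p = 0.804 and 0.894). Rab31, which acts from Golgi to endosomes, was lower at 6 h, with a change of -0.67 (adjusted p = 0.0049) that was -1.08 with the slide block (adjusted p = 0.022). The second Rab31 probe gave -0.27 at 6 h (adjusted p = 0.179). Rab35 was also lower at 6 h, with a change of -0.52 (adjusted p = 0.0162) that was -0.26 with the slide block (adjusted p = 0.578) and lost its call without unstimulated donor A or 6 h donor A or B (adjusted p up to 0.0721). Donor letter as a block added calls for Rab31 at 24 h (-0.41, adjusted p = 0.045, against 0.0615 without it), for Rab5a at 6 h (0.33, 0.028 against 0.0558) and for Rab21 at 6 h (0.36, 0.0475 against 0.054). The second Rab5a probe gave 0.47 at 6 h without that block (adjusted p = 0.0167). Rab22a, Rab14, Rab11a and Rab35 passed at no time with slide as a block, where their adjusted p ran from 0.0669 to 0.578 at 6 h. Without single arrays, Rab11a lost its 6 h call in 10 of 12 cases and Rab22a lost its 24 h call in 9. Rab14 lost its 6 h call in 7 cases and its 24 h call in 7, which were not all the same arrays.

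Of 12 Rabs of the ER and Golgi, 2 were higher and 2 lower at 6 h (median 0.16), and 2 were higher and 1 lower at 24 h (median 0.02). Rab33a, related to the Golgi and autophagy Rab33b, had log2 ratios of 1.36, 1.61 and 1.86 in unstimulated cells, 2.06, 1.63 and 2.06 at 1 h, 2.70, 1.85 and 3.03 at 6 h and 2.69, 2.04 and 3.51 at 24 h. Donor B was the low array at both later times and at 6 h it overlapped with unstimulated cells. The changes were 0.92 and 1.14 (SE 0.34), with adjusted p of 0.0488 and 0.0187 (limma). Blocking by slide gave 0.71 and 0.81 (adjusted p = 0.35 and 0.292). The 6 h call was lost without any 1 of 8 arrays (adjusted p up to 0.174), and the 24 h call without unstimulated donor A or B or 24 h donor C (adjusted p up to 0.0863). Rab33b changed by 0.24 and 0.18 (adjusted p = 0.212 and 0.336).

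Rab19 had log2 ratios of 2.58, 2.54 and 2.74 in unstimulated cells, 2.16, 1.65 and 2.31 at 1 h, 1.63, 2.03 and 2.02 at 6 h and 1.43, 0.80 and 1.24 at 24 h. All LPS arrays lay below all unstimulated ones, and all 24 h arrays below all 6 h ones. The changes were -0.72 (SE 0.20) at 6 h and -1.46 at 24 h, 2.76-fold lower, with adjusted p of 0.0105 and 0.000107 (limma). The slide block gave -0.84 and -1.44 (adjusted p = 0.0483 and 0.00761). Without 6 h donor A the 6 h call was lost (adjusted p = 0.0558).

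Rab2b, a Golgi Rab, was 0.40 and 0.30 higher at 6 and 24 h (adjusted p = 0.00643 and 0.0331, or 0.205 and 0.323 with slide as a block), and its paralog Rab2a changed by 0.25 and 0.23 (adjusted p = 0.19 and 0.238). Rab1b, of ER-to-Golgi transport, changed by -0.52 at 6 h (adjusted p = 0.0315, or 0.137 with slide as a block) and by -0.46 at 24 h (adjusted p = 0.0541, or 0.0121 with donor letter as a block), and Rab1a by 0.20 and -0.20 (adjusted p = 0.408 and 0.394). The second Rab1b probe gave -0.29 and -0.14 at 6 and 24 h (adjusted p = 0.138 and 0.483). Single arrays ended the 24 h call of Rab2b and the 6 h call of Rab1b in 5 cases each (adjusted p up to 0.107 and 0.133). Rab30, of the Golgi, was the member called lower at 1 h, with a change of -0.50 and an adjusted p of 0.0474. That call was lost without any 1 of 11 arrays (adjusted p up to 0.194), and only 1 of 3 arrays at 1 h was above background. Rab43, a Golgi Rab used in cross-presentation by dendritic cells, changed by 0.14, 0.13 and -0.13 at 1, 6 and 24 h (adjusted p = 0.543, 0.491 and 0.485). Rab18, Rab6a and Rab6b were not called, while a second Rab6a probe gave 0.45 at 6 h (adjusted p = 0.0283).

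The 3 GTPases with other roles gave 1 call against unstimulated cells, Rab40c, a Rab with a ubiquitin ligase domain, at 6 h (-0.34, adjusted p = 0.0309, or 0.273 with slide as a block, and up to 0.131 without any 1 of 5 arrays). Of the 7 members that are no Rab GTPase, 2 are exchange factors and were called in opposite directions. Rab3il1, which activates Rab3a and Rab8, had log2 ratios of 1.46, 1.29 and 1.48 in unstimulated cells, 1.65, 0.89 and 1.65 at 1 h, -0.11, -0.36 and 0.81 at 6 h and 0.49, -0.13 and -0.41 at 24 h. Both later groups lay below all unstimulated arrays, with donor C high at 6 h. The changes were -1.29 (SE 0.30) and -1.42, 2.45-fold and 2.68-fold lower, with adjusted p of 0.00435 and 0.0025 (limma), or 0.152 and 0.0918 with slide as a block. Rab3ip, the related exchange factor for Rab8, was 0.79 higher at 6 h (adjusted p = 0.00076) and 0.96 with the slide block (adjusted p = 0.0226), and its change at 24 h was 0.36 (adjusted p = 0.058). The mean of the Rab3ip probes gave 0.40 at 6 h (adjusted p = 0.383). Rab11fip2, Rab11fip4, Rab11fip5, Rab3gap1 and Rab5if were called at no time.

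**Figure D4:**
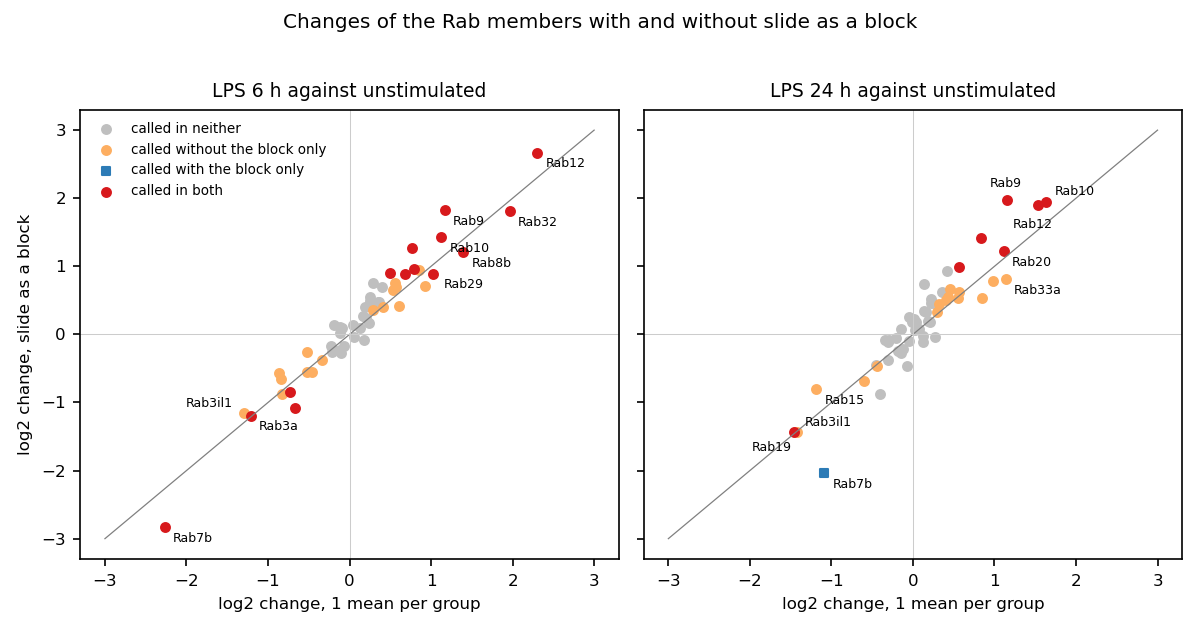
Log2 change of each member with 1 mean per group (x axis) against the change with slide as a block (y axis), at 6 h (left) and 24 h (right) of LPS against unstimulated cells. Rab7b at 24 h, at -1.09 and -2.04, is the point called with the block only.

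Between LPS times, 18 members differed at 6 h from 1 h, against 28.2% of all genes, 12 of them higher (12% of all genes) and 6 lower (16.2%). Of them, 6 changed at least 2-fold (7.48% of all genes). The largest rises were Rab32 by 1.69 (adjusted p = 3.89e-05), Rab12 by 1.24 (0.0103) and Rab29 by 1.17 (5.33e-05), and the largest falls were Rab7b at -1.99 (0.0155), Rab3il1 at -1.28 (0.00709) and Rab15 at -1.03 (0.00723). The other higher members were Rab8b (0.81), Rab10 (0.81), Rab9 (0.78), Rab22a (0.72), Rab23 (0.69), Rab21 (0.61), Rab3ip (0.58), Rab8a (0.45) and Rab5a (0.42), and the other lower ones were Rab3a (-0.95), Rab31 (-0.75) and Rab24 (-0.69). Rab23 acts in Hedgehog signalling, and Rab21 and Rab5a act on early endosomes. All 18 kept their call with slide as a block, which added Rab1b (adjusted p = 0.0309) and Rab34 (0.00163). All 18 had the same sign within slide 3, whose arrays are part of the same test. Under both median centring and the deposited local background of each spot, 5 of the 18 calls held (Rab10, Rab22a, Rab23, Rab32 and Rab3ip). The deposited local backgrounds gave 8 calls (12.4% of all genes), all among the 18. Of the largest changes, Rab12, Rab29 and Rab7b lost their calls with those backgrounds, and Rab32, Rab3il1 and Rab15 kept theirs. Donor letter as a block added Rab27a (adjusted p = 0.0293), Rab1b (0.0445), Rab30 (0.0206) and Rab13 (0.0326). Median centring called 11 higher and 0 lower (13.1% of all genes). Single arrays ended the calls of Rab12 (without 6 h donor A, adjusted p = 0.0505), Rab8a (without 6 h donor A, 0.0672), Rab8b (without any 1 of 3 arrays, up to 0.0768), Rab7b (3 arrays, up to 0.0722), Rab9 (4 arrays, up to 0.113) and Rab5a (4 arrays, up to 0.115).

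At 24 h against 6 h, 6 members were called, against 18.4% of all genes, with 3 higher (9.65% of all genes) and 3 lower (8.73%), and 1 changed at least 2-fold (3.83%). Rab3a (1.03), Rab10 (0.51) and Rab40c (0.46, adjusted p = 0.0155) were higher, and Rab32 (-0.98), Rab19 (-0.74, adjusted p = 0.0211) and Rab29 (-0.46, adjusted p = 0.0359) were lower. All 6 had the same sign within slide 4, whose arrays are part of the same test. Of the 6 calls, 0 held under both median centring and the deposited local background of each spot. With slide as a block 3 members were called (1 higher, 2 lower), namely Rab32 and Rab3a of the 6, and Rab8b (-0.68, adjusted p = 0.0465). Median centring called 0 higher and 4 lower (8.36% of all genes), the Cy5 channel alone 2 higher and 5 lower (14.6%), and the scanner software's processed signals 5 higher and 1 lower (17.2%). The count was 3 without 6 h donor A, 6 h donor B or 24 h donor C (9.73, 11.6 and 11.5% of all genes). Calls were lost without single arrays for Rab29 (6 arrays, adjusted p up to 0.137), Rab10 (5, up to 0.0905), Rab19 (3, up to 0.0748) and Rab40c (2, up to 0.0754). Donor letter as a block added Rab12 (-0.77, adjusted p = 0.0439), Rab24 (0.39, 0.0212) and Rab27a (0.57, 0.036).

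Over all 5 comparisons, 20 members were called in none, 15 of them GTPases. That count rests on the brightest probe of each gene. Another probe passed for Rab6a at 6 h against unstimulated cells (0.45, adjusted p = 0.0283). At 24 h against 6 h, another probe passed for Rab2a (-0.49, adjusted p = 0.0282) and for Rab43 (-0.69, adjusted p = 0.017). The share of all genes called in none is not given here. The log2 changes of these 20 members at 6 h ran from -0.22 to 0.40. By the F test over the 4 groups 31 members differed, against 51.7% of all genes.

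The other genes of the Rab cycle were counted in 4 lists. Beside them, 16.1% of all genes were higher and 23.6% lower at 6 h, and 17.9% higher and 21.4% lower at 24 h. At 1 h these shares were 4.05 and 3.39%. With slide as a block, 2.03, 17.6 and 15.9% of all genes were called at 1, 6 and 24 h. Among 7 tested genes of the carrier and prenylation step, 2 were higher and 2 lower at 6 h, with a median of -0.06, and 3 were higher and 1 lower at 24 h, with a median of 0.28. Gdi2, a GDI that extracts Rabs from membranes, changed by -0.71 and -0.43 at 6 and 24 h (adjusted p = 0.00123 and 0.0247). Chm, which encodes the escort protein REP1, was 0.82 higher at 6 h (adjusted p = 0.000634). Rabac1 was 0.79 higher at 24 h (adjusted p = 0.00323), and Rabggta, a subunit of the prenylating enzyme, changed by -0.48 at 6 h (adjusted p = 0.00735). With slide as a block, the 24 h call of Rabac1 held, Gdi2 at 24 h changed by -0.07 (adjusted p = 0.888), and limma called 0 genes of this list at 6 h (2 at an unadjusted p under 0.05).

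Of 32 exchange factors tested, 6 were higher and 6 lower at 6 h (median -0.06), 5 higher and 3 lower at 24 h (median 0.12) and 1 higher at 1 h, Dennd2a (0.87, adjusted p = 0.0139). Rabgef1, which activates Rab5, was 1.53 higher at 6 h and 1.52 at 24 h (adjusted p = 0.00414 and 0.00432). Dennd5a was 1.11 higher at 24 h (adjusted p = 3.33e-05). Dennd2c was not above background at 6 h, where it changed by -0.83 (adjusted p = 0.000138). It changed by -0.66 at 24 h (adjusted p = 0.00073), where 2 of 3 arrays measured it. Rinl changed by -0.56 at 6 h (adjusted p = 0.0095) and Trappc2 by -0.56 at 24 h (adjusted p = 0.00166). The slide block gave 5 higher and 1 lower at 6 h, 3 higher and 1 lower at 24 h and 0 at 1 h. Of the exchange factors named here, Dennd2a at 1 h, Rinl at 6 h and Dennd2c at 24 h lost their calls (adjusted p = 0.182, 0.33 and 0.16).

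Of 27 GAPs, 6 were higher and 7 lower at 6 h (median -0.04), 6 higher and 2 lower at 24 h (median 0.18), and 1 lower at 1 h. Tbc1d13, a GAP for Rab35, was 1.68 higher at 6 h and 0.83 at 24 h (adjusted p = 8.8e-07 and 0.000256). Tbc1d1, which acts on Rab10 in GLUT4 traffic, was 1.21 higher at 6 h (adjusted p = 4.48e-05), and Rabgap1l was 1.39 higher at 24 h (adjusted p = 1.7e-05). Tbc1d16 changed by -1.81 and -1.94 (adjusted p = 3.95e-06 and 3.63e-06), and Tbc1d10c by -0.82, -1.62 and -1.23 at 1, 6 and 24 h (adjusted p = 0.0173, 2.56e-05 and 0.000212). For this list the slide block gave 2 higher and 4 lower at 6 h, 1 higher and 2 lower at 24 h and 0 of either at 1 h. Of the GAPs named here, Tbc1d10c at 1 h and Tbc1d13 at 24 h lost their calls under it (adjusted p = 0.169 and 0.0795).

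Of 35 effectors, 12 were higher and 5 lower at 6 h (median -0.04), 11 higher and 2 lower at 24 h (median 0.17), and 2 higher at 1 h. Counts with the slide block were 6 higher and 2 lower at 6 h, 5 higher and 1 lower at 24 h and 1 higher at 1 h. Micall2, which binds Rab8 and Rab13, was 1.65 and 1.83 higher at 6 and 24 h (adjusted p = 3.13e-06 and 2.24e-06). Rilpl2, which binds phosphorylated Rab8 and Rab10 in human cells, was 0.89, 1.55 and 1.09 higher at 1, 6 and 24 h (adjusted p = 0.0438, 0.000288 and 0.00329). Ehbp1, an effector of Rab8 and Rab10, was 0.59 higher at 1 h (adjusted p = 0.015, or 0.219 with slide as a block). Mical1 changed by -1.49 at 6 h (adjusted p = 0.000556) and Appl2, a Rab5 effector, by -1.01 (adjusted p = 0.0023, or 0.0559 with slide as a block). At 24 h, Rufy1 changed by -0.81 (adjusted p = 0.000652) and Exoc6 by -0.45 (adjusted p = 0.0184, or 0.166 with slide as a block).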

How the data were processed

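Labelled RNA from 12 samples was hybridised, 1 array each, to 2-colour Agilent arrays. Images were read with Agilent Feature Extraction 10.7.3.1, per the file headers, and the deposited scanner files give each spot's intensity, its local background and flags. The authors also deposited a table of log2 ratios, whose values correlated with those used here at 0.9992 or more on every array; the labels name limma for it. Probe symbols came from RefSeq accessions. Here, limma 3.58.1 in R 4.3.3 corrected median intensity with normexp (offset 50), with local backgrounds called outliers replaced by the array median, removed feature outliers and fitted loess (span 0.3) with control spots at weight 0. Of a gene's probes well above background on all 3 arrays of at least 1 group, the brightest was kept. A model with 1 mean per group was fitted over all 11095 genes with eBayes and Benjamini-Hochberg adjustment. A member is called at an adjusted p under 0.05. No member had a missing value. With 3 arrays per group, the number of arrays limits the precision.

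Members called in any comparison are named, those called and changed 2-fold against unstimulated cells are given array by array, and uncalled members are named as paralogs or for a known role. In the other lists the 2 largest called rises and falls at each time are named, except that some are not reported here. The members and lists were chosen with earlier results of these data known. The script was tested on simulated data. The donor letters come from the labels. Deviations from group means correlated at a median of 0.11 over 18 same-letter pairs (-0.21 to 0.58) and -0.01 over 36 different-letter pairs (-0.53 to 0.41). With the letter as a block, 10.2, 42.4 and 42.7% of all genes were called at 1, 6 and 24 h, against 7.44, 39.6 and 39.4% without it. The main model did not pair the samples by letter, and the labels do not say whether a letter marks the same animal. Alternatives were other backgrounds, centring, channels, filters and probe rules, slide and donor letter as blocks, and leaving out each array.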

Additional observations from a re-analysis of the deposited data

How the results depend on the processing

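Counts of members called at 1, 6 and 24 h against unstimulated cells, at 6 h against 1 h, at 24 h against 6 h and by the F test were 5, 30, 21, 18, 6 and 31. With each spot's deposited local background they were 0, 18, 10, 8, 1 and 17 (2.19, 22, 27.3, 12.4, 7.19 and 30.9% of all genes), with median centring in place of loess 0, 12, 11, 11, 4 and 15 (2.03, 18.2, 21, 13.1, 8.36 and 25.2%), and with slide as a block 0, 14, 8, 20, 3 and 19 (2.03, 17.6, 15.9, 24.6, 7.82 and 28.3%). Without these changes the shares of all genes were 7.44, 39.6, 39.4, 28.2, 18.4 and 51.7%. Under these 3 settings, limma gave 9, 5 and 11 members an unadjusted p under 0.05 at 1 h. At 1 h the count was also 1 with the Cy5 channel alone (5.34% of all genes). It was 3 with signals as processed by the scanner software (6.03%) and 3 with the mean of all probes (7.11%). With no filter on dim probes it was 3 of 62 members (4.4% of all genes). Leaving out 1 array at a time gave 1 to 6 at 1 h, 21 to 32 at 6 h, 15 to 23 at 24 h, 12 to 20 for 6 h against 1 h, 3 to 8 for 24 h against 6 h and 24 to 33 by the F test. In a setting giving each limit, the shares of all genes were 3.05 and 7.94%, 30.4 and 41.7%, 31.3 and 42%, 18.8 and 27.8%, 9.73 and 20.8%, and 44.2 and 50.5%, in the same order. Donor letter as a replicate block gave 7, 32, 25, 22, 9 and 34 (10.2, 42.4, 42.7, 31.2, 21.7 and 56% of all genes), and it changed no calls between groups other than those named above. By the F test it added Rab13, Rab1b and Rab35 (adjusted p = 0.0182, 0.0109 and 0.0428, against 0.123, 0.0611 and 0.0593 without it). Reversed called values were 2, both with the deposited local backgrounds: Rab8b at 6 h against 1 h (-0.0537) and Rab29 at 24 h against 6 h (0.0875). The cause of these shifts was not tested. Median centring moved the median of all genes to -0.12 at 1 h, -0.11 at 24 h, 0.13 for 6 h against 1 h and -0.18 for 24 h against 6 h. Under all 11 other settings and every array left out, Rab10, Rab12, Rab32, Rab8a and Rab9 stayed called at 6 h, and Rab10, Rab12, Rab19, Rab34 and Rab9 at 24 h. With processed signals, the 1 h change of Rab30 was -2.18. Signal over background limits Rab38 and Rab39, which no array measured above background in some groups.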
